A study of Mus musculus with 6 samples.

Results

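The genes described here encode 7 enzymes that convert glutamine, glutamate and the compounds made from glutamate into one another: Glul, Glud1, Got1, Got2, Gpt2, Aldh18a1 and Pycr1. They were taken by name, as the glutamine synthetase, dehydrogenase, transaminase and proline-route genes listed, with earlier results of these data known. The same holds for the lists of other genes below, so counts of called genes among them are a description only. Other enzymes of these reactions exist and are not among them. All 7 were found among the 16840 genes of the count table. The counts came from RNA sequencing of mouse alveolar macrophages in culture, cells that clear particles and surfactant from the lung's air sacs, taken at day 2. All cells were wild type (WT), and 3 groups of 2 libraries were compared. The first group had GM-CSF plus DON, a name the labels do not spell out. The second had GM-CSF alone, and the third had no GM-CSF. These macrophages need the cytokine GM-CSF to develop. The labels give AM as the cell line, without saying if that means primary cells or if the libraries of a group came from separate cultures or animals. The p-values therefore measure only the spread between these libraries, estimated in part across genes, and that spread may be technical.

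Glutamine synthetase (Glul) joins ammonia to glutamate to make glutamine. Glutamate dehydrogenase (Glud1) and the transaminases Got1, Got2 and Gpt2 link glutamate to 2-oxoglutarate, an intermediate of the TCA cycle, and to aspartate and alanine. The proline route starts with the bifunctional synthase Aldh18a1, which reduces glutamate to pyrroline-5-carboxylate, and ends with reductases such as Pycr1 that make proline. Macrophages are known to use glutamine at a high rate.

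Total counts per library lay between 28321986 and 35196387, and the 7 genes took between 0.0816% and 0.0896% of them. Of the 15 alveolar macrophage markers, all 15 averaged at least 1 CPM (counts relative to library size, here TMM-scaled). Their summed level was between 21571 and 21917 CPM with GM-CSF and DON, between 19918 and 19973 CPM with GM-CSF, and between 17520 and 18353 CPM without GM-CSF. These sums hide shifts of single markers in both directions. With DON against GM-CSF, 8 were called higher and 5 lower by the test described below (28.8% and 28.8% of all tested genes). With GM-CSF against none, 4 were called higher and 9 lower (27.5% and 29.3%). Some called shifts were small, such as that of Siglec5, which averaged 474 CPM with DON and 394 CPM with GM-CSF, and others were large. Car4 averaged 314 CPM with DON, 656 CPM with GM-CSF and 0.226 CPM without GM-CSF, Chi3l3 averaged 7700.2, 5542 and 1814 CPM in the same groups, and Emr1 averaged 93.8, 54.4 and 289 CPM. Of the granulocyte markers, 2 of 5 were measured (S100a8 and Csf3r), with sums of 3.84 to 4.86 CPM with DON, 4.26 to 4.93 CPM with GM-CSF and 30.4 to 32.6 CPM without it. The 5 dendritic cell markers, all measured, summed to between 25.2 and 25.4 CPM with DON, between 27.5 and 27.9 CPM with GM-CSF and between 8.64 and 8.82 CPM without it. Of these, Clec9a averaged 15.5 CPM with DON and 8.498 CPM with GM-CSF, while Zbtb46 averaged 3.63 CPM with DON and 8.25 CPM with GM-CSF. The sums for lung epithelium (5 of 5 measured) were 0.798 to 1.22 CPM with DON, 0.909 to 1.17 CPM with GM-CSF and 2.77 to 3.802 CPM without it. Those for stroma with endothelium (5 of 6) were 0.699 to 0.983 CPM with DON, 1.58 to 1.68 CPM with GM-CSF and 0.154 to 0.238 CPM without it. Lymphocyte markers (2 of 4) stayed at or below 0.134 CPM, and the T cell gene Cd3g had no counts in any library with GM-CSF. The dendritic and stromal sums and single macrophage markers differed both between DON and GM-CSF and between libraries with and without GM-CSF. The granulocyte and epithelial sums differed with and without GM-CSF, and overlapped between DON and GM-CSF. The part of these markers in the results for the 7 genes was not tested.

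Glul moved against the other genes: GM-CSF lowered it and raised the other 6. With DON the proline-route genes Aldh18a1 and Pycr1 fell against GM-CSF alone, and Glul was also called lower, with a small log2 fold change of -0.13. The dehydrogenase and the 3 transaminases were not called in that comparison, with log2 fold changes between -0.06 and 0.10. Of the 7 genes, 6 rose and 1 fell with GM-CSF, while 27.5% of the 12340 genes tested rose, 29.3% fell and 56.8% were called in either direction. With DON added to GM-CSF, 0 rose and 3 fell, against 28.8% of all tested genes higher, 28.8% lower and 57.6% called in either direction. With both GM-CSF and DON against neither, 5 rose and 1 fell, against 27.2% higher, 28.4% lower and 55.6% in either direction. A gene was called when its p from the quasi-likelihood test of edgeR, adjusted by Benjamini-Hochberg over the whole table tested, was under 0.05. A called change of at least 2-fold was found for 4 of the 7 with GM-CSF (Glul, Gpt2, Aldh18a1 and Pycr1; 11.7% of all tested genes), for Pycr1 with DON against GM-CSF (9.37% of all tested genes), and for 3 of the 7 with both against neither (Glul, Gpt2 and Aldh18a1; 11.6%). The libraries of the groups did not overlap for 7 of the 7 with GM-CSF (78.7% of all tested genes), for 5 of the 7 with DON against GM-CSF (79.4%) and for 7 of the 7 with both against neither (77.6%). The median log2 fold change of the 7 genes was 0.53 with GM-CSF (all tested genes, -0.02), -0.06 with DON added (all tested genes, 0.01) and 0.25 with both against neither (all tested genes, 0.01). The share of all genes called was high, so a call by itself sets none of the 7 apart from the rest of the transcriptome. In bulk RNA, fewer cells of a type and less RNA per cell cannot be told apart. The first and second comparisons share the GM-CSF libraries, so opposite changes in them do not support each other.

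**Figure D1:**
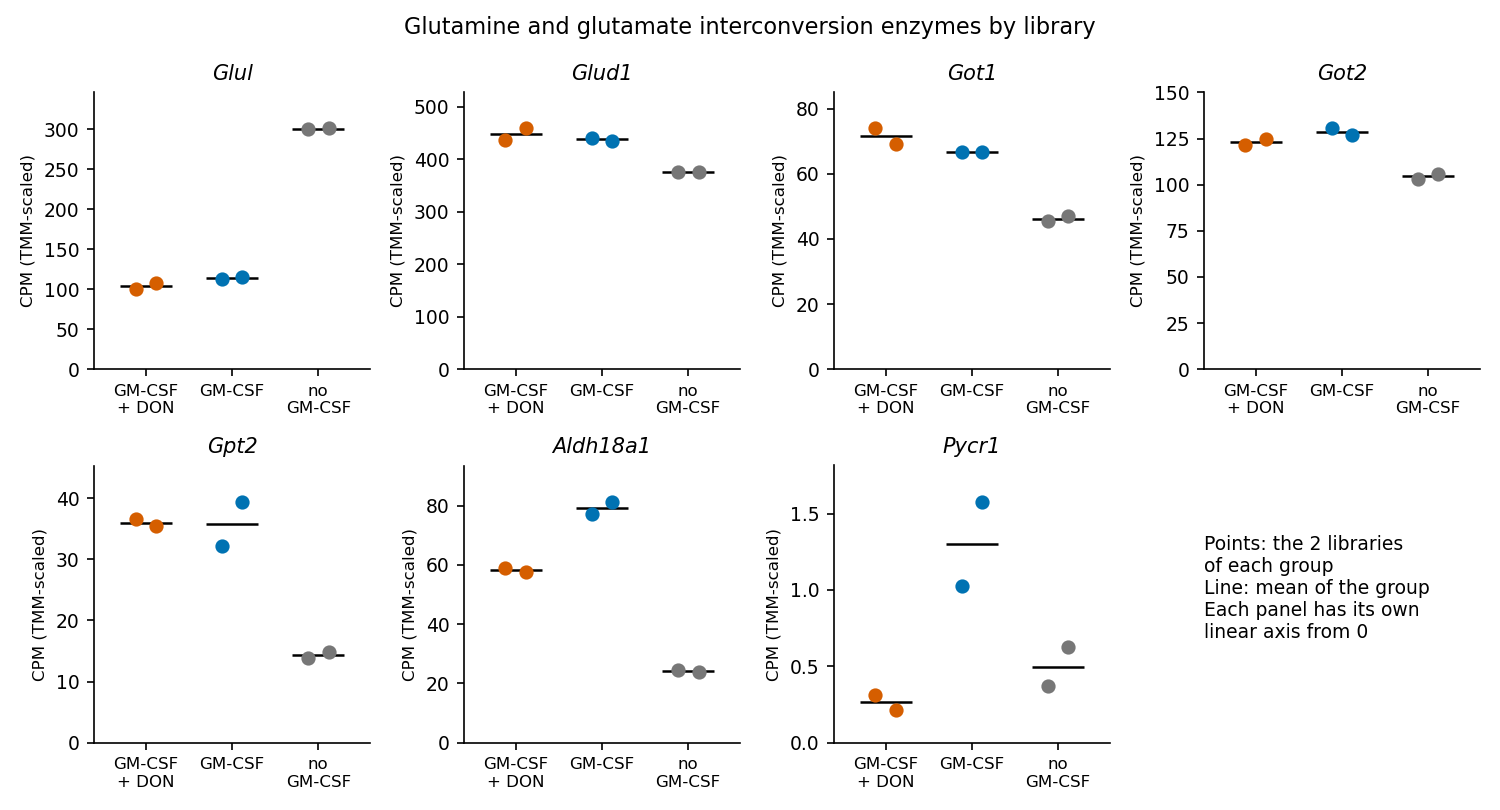
Level of each of the 7 genes in CPM on TMM-scaled library sizes, with 1 point per library and a line at the mean of the 2 libraries of a group; each panel has its own linear axis from 0. Glul is near 100 to 115 CPM in the 4 libraries with GM-CSF and near 300 CPM in both without it, while Aldh18a1 and Pycr1 are highest in the GM-CSF libraries.

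Per transcript length, as given by the authors' FPKM values, Glud1 was the most abundant of the 7 in every group, at 158 and 165 FPKM with DON, 155 and 160.3 FPKM with GM-CSF, and 132 and 134 FPKM without GM-CSF. Its mean level was above that of 96.6%, 96.4% and 95.8% of the genes in the table in those groups. With DON the order was Glud1, Got2, Got1, Glul, Aldh18a1, Gpt2 and Pycr1. With GM-CSF, Glul came after Got2 and before Got1, and without GM-CSF, Glul came directly after Glud1, at 115 and 119.8 FPKM. Neighbours in the order did not overlap between their libraries in any group, and counts divided by a common length per gene gave the same order. Pycr1 was far below the others, at 0.187 and 0.0956 FPKM with DON, 0.600 and 0.918 FPKM with GM-CSF, and 0.213 and 0.350 FPKM without GM-CSF, while Gpt2, the next gene up, was at 10.8 and 10.2, 9.38 and 13.9, and 4.03 and 4.29 FPKM in the same groups.

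**Figure D2:**
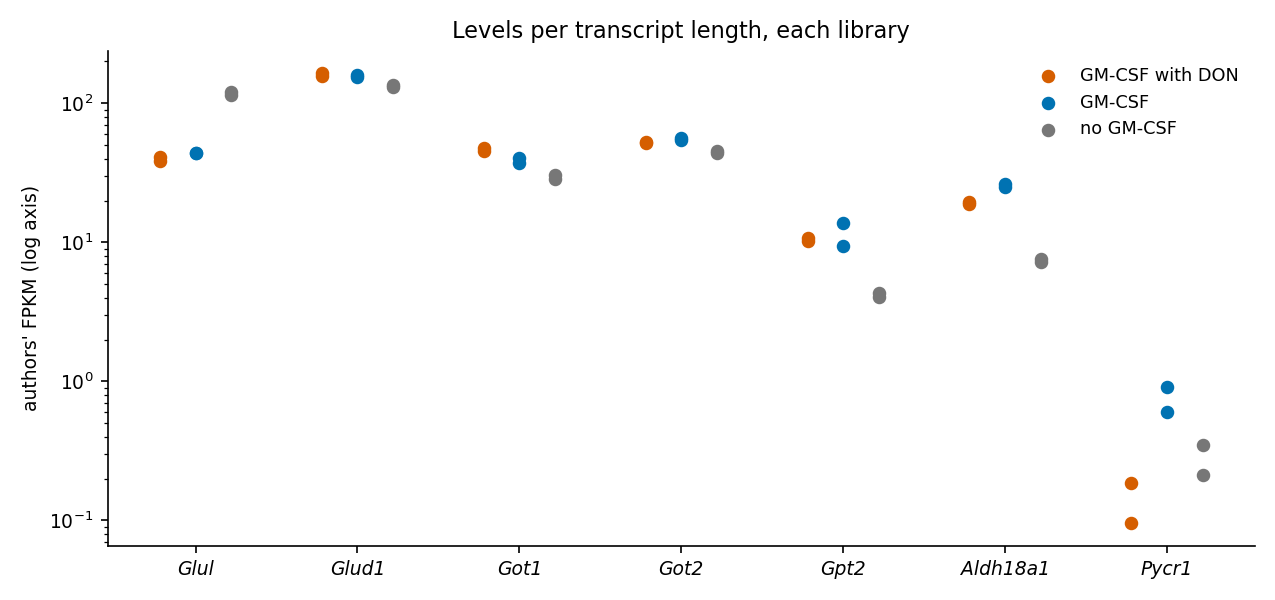
The authors' FPKM of the 7 genes in each of the 6 libraries on a log axis, with GM-CSF and DON, GM-CSF alone and no GM-CSF side by side for each gene. Glud1 lies at 132 FPKM or more in every library, Pycr1 below 1 FPKM in every library, and Glul lies directly below Glud1 without GM-CSF but below Got2 and Got1 with DON.

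Glul lies on chromosome 1 from 153899944 to 153909723 on the plus strand (GRCm38, GENCODE M21), a protein-coding gene with 10 merged exons. It had 100.3 and 108 CPM with GM-CSF and DON, 113 and 115 CPM with GM-CSF, and 300.0 and 302 CPM without GM-CSF. The libraries without GM-CSF stood well above the other 4, and no groups overlapped. GM-CSF lowered Glul 2.64-fold, a log2 fold change of -1.40 ± 0.05 (SE, adjusted p = 7.37e-09), and GM-CSF with DON lowered it 2.89-fold against no GM-CSF (-1.53 ± 0.05, adjusted p = 4.42e-09). DON on top of GM-CSF gave a further log2 fold change of -0.13 ± 0.05, with adjusted p = 0.0382 and a 95% confidence interval of -0.24 to -0.02. That small fall was not called without GM-CSF with DON replicate 1 (-0.081, adjusted p = 0.222), without GM-CSF replicate 1 (-0.14, adjusted p = 0.091), without GM-CSF replicate 2 (-0.12, adjusted p = 0.149), or with no filter on low counts (adjusted p = 0.0548), and over all 13 alternatives its adjusted p lay between 0.0212 and 0.222. The 3 genes most like Glul over the 6 libraries were Limd2, Fam49a and Pfkfb4, a regulator of glycolysis, with root mean square differences of 0.042, 0.050 and 0.057 in centred log2 CPM. Only 9 of 7723 genes compared came within 0.1 of Glul.

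Glud1 lies on chromosome 14 from 34310727 to 34345265 (plus strand, 15 merged exons). It is the mitochondrial enzyme that removes ammonia from glutamate. Its level was 436 and 459 CPM with DON, 441 and 436 CPM with GM-CSF, and 376 and 375 CPM without GM-CSF. The 4 libraries with GM-CSF overlapped each other and stood above both libraries without it. The rise was 1.17-fold with GM-CSF (0.22 ± 0.04, adjusted p = 0.00095) and 1.19-fold with GM-CSF and DON against no GM-CSF (0.25 ± 0.04, adjusted p = 0.000427). Against GM-CSF alone, DON gave 0.03 ± 0.04 (95% interval -0.06 to 0.12, adjusted p = 0.528). This pattern was common: 824 of 7723 genes came within 0.1 of Glud1, the nearest being Cdkl2, the cyclin gene Ccng1 and Ankrd27, with differences of 0.019, 0.020 and 0.020.

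Got1 and Got2 encode the cytosolic and the mitochondrial aspartate aminotransferase, which work together in the malate-aspartate shuttle. Got1 lies on chromosome 19 from 43499752 to 43524605 (minus strand, 9 merged exons) and Got2 on chromosome 8 from 95864134 to 95888547 (minus strand, 11 merged exons). Got1 had 74.0 and 69.2 CPM with DON, 66.5 and 66.6 CPM with GM-CSF, and 45.4 and 47.1 CPM without GM-CSF. Got2 had 122 and 125 CPM with DON, 131 and 127 CPM with GM-CSF, and 103 and 106 CPM without GM-CSF. For both genes the libraries without GM-CSF were the lowest, and the groups did not overlap.

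GM-CSF raised Got1 1.44-fold (0.53 ± 0.05, adjusted p = 1.88e-05) and Got2 1.23-fold (0.30 ± 0.05, adjusted p = 0.000287). With DON added, the log2 fold change against GM-CSF was 0.10 ± 0.05 for Got1 (95% interval -0.01 to 0.22, adjusted p = 0.117) and -0.06 ± 0.05 for Got2 (-0.17 to 0.04, adjusted p = 0.252). Against no GM-CSF, cells with both had 1.55-fold more Got1 (0.63 ± 0.05, adjusted p = 5.17e-06) and 1.18-fold more Got2 (0.24 ± 0.05, adjusted p = 0.0015). On the authors' FPKM, tested by limma on log2(FPKM + 1), Got1 was called higher with DON than with GM-CSF (0.25, adjusted p = 0.0123; 0.0123 to 0.464 over 13 alternatives, with no other call). The transcript length implied by counts over FPKM, on total counts without TMM scaling, was for Got1 1.56 and 1.57 kb with DON, 1.71 and 1.84 kb with GM-CSF, and 1.51 and 1.48 kb without GM-CSF. For Got2 it was 2.38 and 2.40 kb, 2.41 and 2.41 kb, and 2.21 and 2.24 kb in the same groups. The shorter value without GM-CSF was therefore not particular to Got1. Between DON and GM-CSF, the deposited tables differ for Got1 in a way that follows the groups. The ratio of Got1 to Got2 counts was 0.609 and 0.555 with DON, 0.509 and 0.525 with GM-CSF, and 0.440 and 0.444 without GM-CSF. The genes nearest to Got1 were Ppfia1, the ER ubiquitin ligase Syvn1 and the ribosomal protein gene Rpl14 (0.025, 0.025 and 0.027), and those nearest to Got2 were Zfp511, the autophagy gene Atg3 and the translation factor gene Eif3d (0.018, 0.018 and 0.021). Of 7723 genes compared, 122 came within 0.1 of Got1 and 782 within 0.1 of Got2, whose pattern was thus common.

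Gpt2, the mitochondrial alanine aminotransferase, lies on chromosome 8 from 85492576 to 85527560 (plus strand, 12 merged exons). It had 36.5 and 35.5 CPM with DON, 32.2 and 39.4 CPM with GM-CSF, and 13.9 and 14.8 CPM without GM-CSF. The DON libraries fell between both GM-CSF libraries, and all 4 stood above those without GM-CSF. GM-CSF raised Gpt2 2.49-fold (1.32 ± 0.10, adjusted p = 1.6e-06), and GM-CSF with DON raised it 2.51-fold against no GM-CSF (1.33 ± 0.10, adjusted p = 1.56e-06). The difference of DON against GM-CSF was 0.01 ± 0.09 (95% interval -0.19 to 0.21, adjusted p = 0.939). The nearest genes were the caveolin gene Cav1, Obfc2a and the lectin receptor gene Clec4n, with differences of 0.058, 0.096 and 0.097, and 4 genes in all came within 0.1. The cytosolic counterpart Gpt was low, at 3.32 and 2.33 CPM with DON, 1.99 and 2.35 CPM with GM-CSF, and 2.00 and 2.17 CPM without GM-CSF, and was called in none of the 3 comparisons, with adjusted p between 0.129 and 0.854. Gpt was named after its values were seen.

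**Figure D3:**
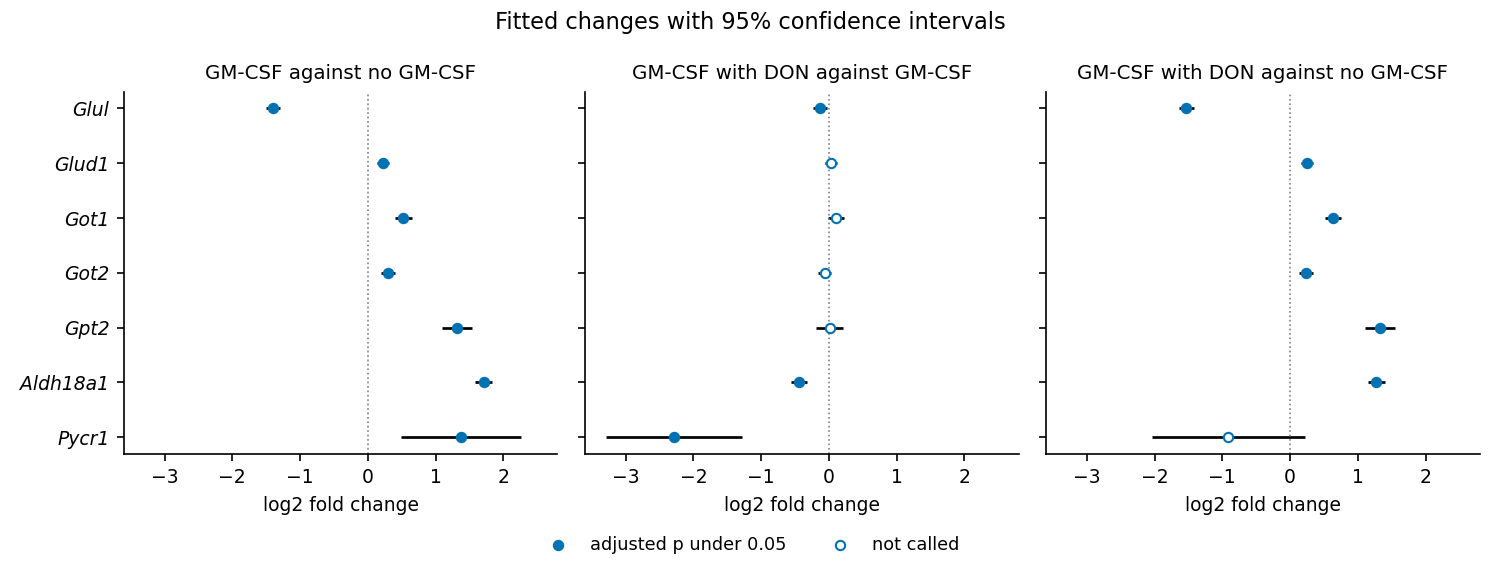
Fitted log2 fold change of each of the 7 genes in the 3 comparisons, with bars for the 95% confidence interval; filled points have an adjusted p under 0.05. The intervals of Glud1, Got1, Got2 and Gpt2 span 0 for DON against GM-CSF, and the interval of Pycr1 is the widest in every comparison.

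The start regions of 3 of these genes held a motif searched for. They are shown for that match. Of them, the proline-route genes Pycr1 and Aldh18a1 fell with DON and Got1 was not called. Glul, also called lower with DON, held no match, nor did Glud1, Got2 and Gpt2, which were not called. Whether a match bears on the change with DON was not tested. Each is 300 bases of the gene's strand, 5′ to 3′, from 250 bases before the start site to 50 after it, from RefSeq (GRCm38.p6), where all 7 genes matched by symbol. The motifs were TGATGNAA, the core of the composite element bound by ATF4 with C/EBP factors, the E-box CACGTG, and TTCNNNGAA, the site class bound by STAT factors. Both strands were read, and capitals mark the matches.
Pycr1, chr11:120643699-120643998, minus strand: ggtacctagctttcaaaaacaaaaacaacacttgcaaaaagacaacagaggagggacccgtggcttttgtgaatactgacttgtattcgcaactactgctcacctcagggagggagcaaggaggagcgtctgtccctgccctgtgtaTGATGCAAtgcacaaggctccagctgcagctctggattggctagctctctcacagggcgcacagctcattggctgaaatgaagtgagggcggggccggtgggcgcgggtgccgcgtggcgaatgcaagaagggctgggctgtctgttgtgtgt
Got1, chr19:43524556-43524855, minus strand: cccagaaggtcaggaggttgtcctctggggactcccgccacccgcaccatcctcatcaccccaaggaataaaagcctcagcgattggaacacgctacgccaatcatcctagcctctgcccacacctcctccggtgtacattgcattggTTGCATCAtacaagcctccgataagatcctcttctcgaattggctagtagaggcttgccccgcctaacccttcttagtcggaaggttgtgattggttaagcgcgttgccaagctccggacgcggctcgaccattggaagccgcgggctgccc
Aldh18a1, chr19:40588414-40588713, minus strand: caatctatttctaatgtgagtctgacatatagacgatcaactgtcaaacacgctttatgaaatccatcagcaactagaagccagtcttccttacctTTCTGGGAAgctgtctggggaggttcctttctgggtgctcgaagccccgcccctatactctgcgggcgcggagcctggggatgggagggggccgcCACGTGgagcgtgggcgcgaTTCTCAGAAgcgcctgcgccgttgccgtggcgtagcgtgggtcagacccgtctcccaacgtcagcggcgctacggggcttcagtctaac
Pycr1 held TGATGCAA, beginning 103 bases before the start, and Got1 held the same letters on the opposite strand, read here as TTGCATCA, beginning 102 bases before the start. Aldh18a1 held CACGTG beginning 59 bases before the start, and TTCTGGGAA and TTCTCAGAA beginning 154 and 39 bases before it. None of the motifs overlapped another, and Glul, Glud1, Got2 and Gpt2 held none of them in this window. Of the 32851 start regions in the table, 3.97% held TGATGNAA, 7.15% held CACGTG and 8.3% held TTCNNNGAA. A match is a match of letters and does not show binding.

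Aldh18a1 lies on chromosome 19 from 40550257 to 40588463 (minus strand, 19 merged exons). It had 59.0 and 57.7 CPM with DON, 77.0 and 81.3 CPM with GM-CSF, and 24.4 and 23.9 CPM without GM-CSF. The 3 groups were fully separate, with the DON libraries between the other groups. GM-CSF raised it 3.28-fold (1.71 ± 0.06, adjusted p = 5.57e-09), the smallest adjusted p of the 7 genes in that comparison. DON lowered it 1.36-fold against GM-CSF (-0.44 ± 0.05, adjusted p = 5.33e-05), and it stayed 2.42-fold higher than without GM-CSF (1.27 ± 0.06, adjusted p = 4.1e-08). The nearest genes were Tmem173, which encodes the innate immune adaptor STING, St7 and BC030867 (0.049, 0.065 and 0.083), and 6 genes came within 0.1.

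Pycr1, a mitochondrial reductase of the last step of proline synthesis, lies on chromosome 11 from 120635712 to 120643769 (minus strand, 9 merged exons). It had few reads: 9 and 7 counts with DON, 35 and 47 with GM-CSF, and 12 and 21 without GM-CSF, or 0.315 and 0.215 CPM, 1.03 and 1.58 CPM, and 0.369 and 0.624 CPM. All 7 genes passed the filter on low counts, Pycr1 with the least to spare, and none of them through 1 group alone. The GM-CSF libraries were the highest, and the DON libraries were both below those without GM-CSF. With DON the level was 4.88-fold lower than with GM-CSF (95% interval 2.44 to 9.77, -2.29 ± 0.45, adjusted p = 0.00151). The rise with GM-CSF was 2.59-fold (95% interval 1.398 to 4.80, 1.37 ± 0.40, adjusted p = 0.0138). Both against neither gave -0.91 ± 0.50 (95% interval -2.04 to 0.21, adjusted p = 0.152), a difference not detectable at this depth. With a library left out this value lay between -1.24 (without no GM-CSF replicate 1) and -0.49 (without no GM-CSF replicate 2), never called.

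The rise of Pycr1 with GM-CSF was not called without GM-CSF replicate 2 (1.04, adjusted p = 0.109) or without no GM-CSF replicate 1 (1.05, adjusted p = 0.0834), and its adjusted p lay between 0.0083 and 0.109 over 13 alternatives. Its fall with DON was called in all 13, with adjusted p between 0.000527 and 0.0198. By limma on log2(FPKM + 1), where the pseudocount outweighs so low a level, the values were 0.45 with GM-CSF and -0.62 with DON, both called. No gene with at least 10 CPM came within 0.1 of Pycr1, and the nearest were the mitosis genes Plk1, Kif20a and Sgol2, at 0.28, 0.31 and 0.31. With so few reads, the spread between Pycr1's own libraries enters these distances. They therefore do not show how common or rare its pattern was.

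Pycrl, the cytosolic paralog of Pycr1, had 9.49 and 9.02 FPKM with DON, 13.5 and 15.4 FPKM with GM-CSF, and 14.4 and 13.7 FPKM without GM-CSF, all far above Pycr1. It was the DON libraries that stood lowest. Pycrl was not called with GM-CSF (0.03 ± 0.09, adjusted p = 0.766) and fell with DON (-0.63 ± 0.09, adjusted p = 0.000212). Ornithine aminotransferase (Oat), which feeds ornithine into the same intermediate, rose with GM-CSF (0.58 ± 0.06, adjusted p = 1.17e-05) and fell with DON (-0.49 ± 0.06, adjusted p = 4.28e-05). Of these 4 genes of proline synthesis, Aldh18a1, Pycr1, Pycrl and Oat, 3 rose with GM-CSF (27.5% of all tested genes), 4 fell with DON against GM-CSF (28.8%), and 1 rose and 1 fell with both against neither (27.2% and 28.4%). Pycrl and this group of 4 were singled out after their values were seen, so the count is a description only. Of the genes of proline breakdown, also named after their values were seen, Prodh was not called with DON against GM-CSF (0.14 ± 0.23, adjusted p = 0.626), and fell with GM-CSF (-0.69 ± 0.22, adjusted p = 0.0192) and with both against neither (-0.55 ± 0.21, adjusted p = 0.0491). Aldh4a1 rose slightly with DON against GM-CSF (0.18 ± 0.07, adjusted p = 0.0396) and was called in neither other comparison (adjusted p = 0.129 and 0.515).

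Of the 30 other glutamate, glutamine and proline enzymes listed, 24 were in the table and 19 were tested. Ggt5 met the filter on low counts only through the libraries without GM-CSF, where it was high, and is left out of the counts. Of the other 18, 6 rose, 5 fell and 7 were not called with DON against GM-CSF, with a median of 0.04. With GM-CSF against none, 5 rose, 4 fell and 9 were not called, with a median of -0.003. With both against none, 6 rose, 5 fell and 7 were not called, with a median of 0.15. Of all tested genes, 28.8% rose and 28.8% fell with DON against GM-CSF, and 27.5% and 29.3% with GM-CSF against none. With both against none the shares were 27.2% and 28.4%. Psat1, the serine-pathway transaminase that turns glutamate into 2-oxoglutarate, had the smallest adjusted p under DON. It had 116 and 112 CPM with DON, 204 and 215 CPM with GM-CSF, and 86.8 and 94.2 CPM without GM-CSF, a fall of 0.88 ± 0.05 on the log2 scale with DON (adjusted p = 7.46e-07) and a rise of 1.21 ± 0.05 with GM-CSF (adjusted p = 5e-08). Asparagine synthetase (Asns), which takes its nitrogen from glutamine, behaved like Gpt2 in having no call with DON: it had 101 and 97.5 CPM with DON, 98.5 and 107 CPM with GM-CSF, and 21.1 and 24.3 CPM without GM-CSF (DON against GM-CSF -0.05 ± 0.07, adjusted p = 0.544).

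**Figure D4:**
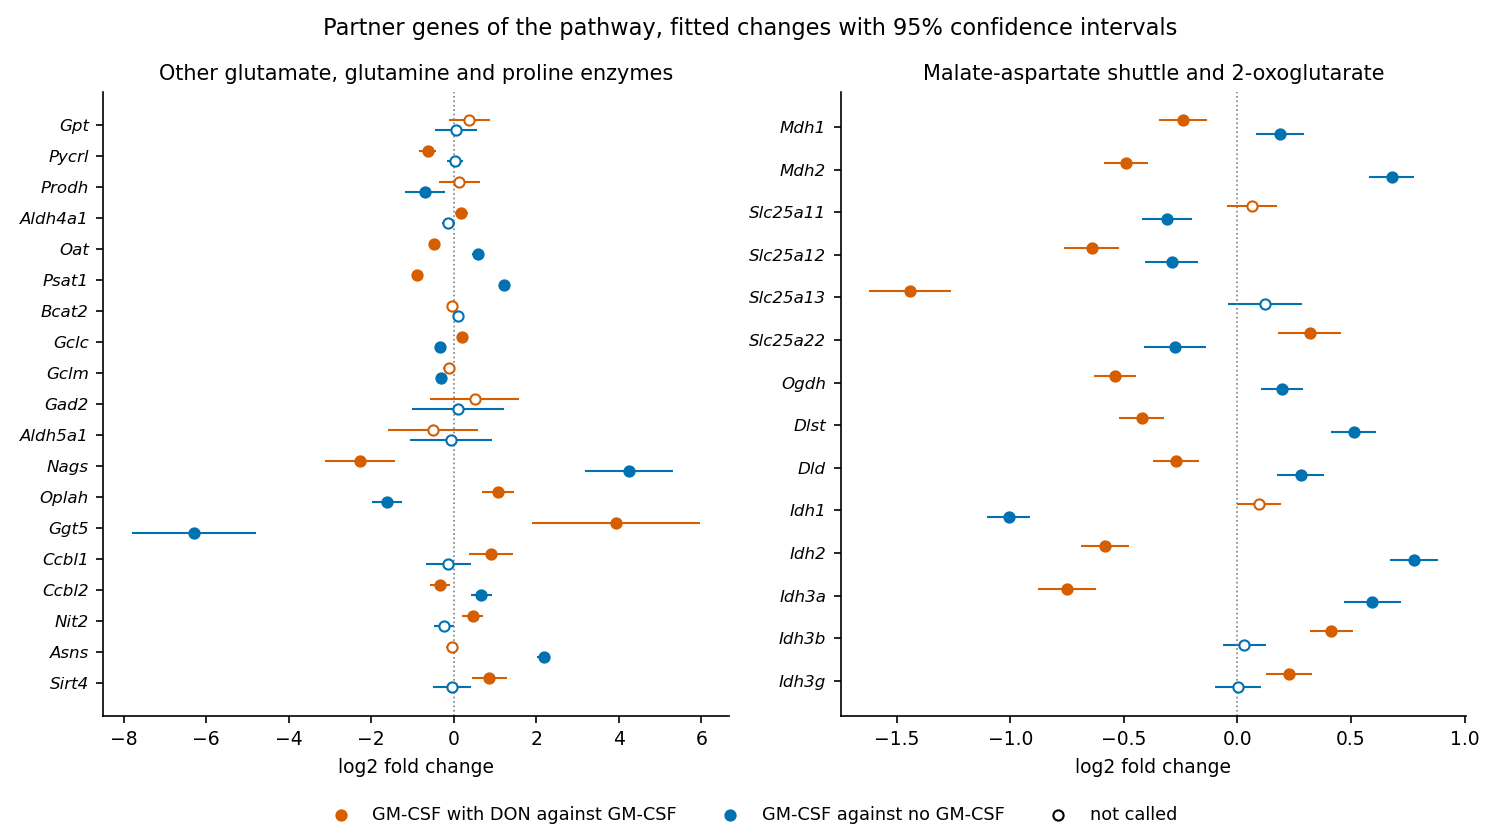
Fitted log2 fold changes with 95% confidence intervals for the tested genes of the lists of other glutamate, glutamine and proline enzymes (left) and of the malate-aspartate shuttle and 2-oxoglutarate partners (right), in DON against GM-CSF (orange) and GM-CSF against none (blue); open points were not called. Mdh2, Idh2, Idh3a, Oat and Psat1 lie right of 0 with GM-CSF and left of 0 with DON, and Ggt5, which had 11 and 7 counts with DON and 1 and 0 counts with GM-CSF, has the widest intervals.

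Of 15 genes of the malate-aspartate shuttle and 2-oxoglutarate metabolism, partners of Got1, Got2 and Glud1, 14 were tested. With DON against GM-CSF, 3 rose, 9 fell and 2 were not called, with a median of -0.35, and with GM-CSF against none, 7 rose, 4 fell and 3 were not called, with a median of 0.15. With both against none, 4 rose, 6 fell and 4 were not called (median -0.02). In the same order, 28.8%, 27.5% and 27.2% of all tested genes rose, and 28.8%, 29.3% and 28.4% fell. The mitochondrial aspartate-glutamate carrier Slc25a13 had 10.4 and 11.8 CPM with DON, 29.95 and 30.5 CPM with GM-CSF, and 28.9 and 26.7 CPM without GM-CSF, a log2 fold change of -1.44 ± 0.08 with DON (adjusted p = 4.68e-07). The second such carrier, Slc25a12, had 26.0 and 26.7 CPM with DON, 41.2 and 41.0 CPM with GM-CSF, and 50.6 and 49.9 CPM without GM-CSF (-0.64 ± 0.05, adjusted p = 6.03e-06 with DON; named after its values were seen). The isocitrate dehydrogenase subunit Idh3a fell by 0.75 ± 0.06 with DON, the 2-oxoglutarate dehydrogenase subunit Ogdh by 0.54 ± 0.04 and Idh2 by 0.58 ± 0.05 on the log2 scale (adjusted p between 2.89e-06 and 4.1e-06). The other subunits of the Idh3a enzyme, named after their values were seen, rose with DON: Idh3b had 186 and 183 CPM with DON and 138.1 and 139 CPM with GM-CSF (0.41 ± 0.04, adjusted p = 2.02e-05), and Idh3g had 134.9 and 134.6 CPM with DON and 118 and 112 CPM with GM-CSF (0.23 ± 0.05, adjusted p = 0.00159). Idh1, the cytosolic isocitrate dehydrogenase, had Glul's direction with GM-CSF: 178 and 170.05 CPM with DON, 161 and 165 CPM with GM-CSF, and 331 and 325 CPM without GM-CSF (-1.01 ± 0.04 with GM-CSF, adjusted p = 3.7e-08).

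Of 17 transporter genes of glutamine, glutamate, aspartate and proline, 15 were in the table and 12 were tested. Slc1a2 met the filter only through the DON libraries, with 17 and 23 counts there, 2 and 2 with GM-CSF and 4 and 1 without GM-CSF, and is left out of the counts. Of the other 11, 5 rose, 3 fell and 3 were not called with DON against GM-CSF (median 0.23). With GM-CSF against none, 4 rose, 1 fell and 6 were not called (median 0.14), and with both against none, 9 rose and 2 fell (median 0.48). Over all tested genes, 28.8%, 27.5% and 27.2% rose in these comparisons, in the same order, and 28.8%, 29.3% and 28.4% fell. The glutamine carriers did not move together under DON: Slc1a5 had 98.0 and 96.6 CPM with DON, 138.6 and 139.5 CPM with GM-CSF, and 82.2 and 87.8 CPM without GM-CSF. Its log2 fold change with DON was -0.51 ± 0.05 (adjusted p = 1.23e-05), and that of Slc38a1 was -0.62 ± 0.05 (adjusted p = 6.03e-06). Slc38a2, another glutamine carrier, was called higher with DON than with GM-CSF. It had 170 and 160 CPM with DON, 120 and 127 CPM with GM-CSF, and 72.6 and 70.1 CPM without GM-CSF. The lysosomal glutamine carrier Slc38a7 rose with DON (0.80 ± 0.06, adjusted p = 2.98e-06), and so did Slc3a2, the partner chain of several amino acid exchangers, with 607 and 569.5 CPM with DON, 232 and 228 CPM with GM-CSF, and 219 and 221 CPM without GM-CSF (1.35 ± 0.04, adjusted p = 2.77e-08).

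Aldh18a1, Pycr1 and Gpt2 are known as genes of the amino acid response driven by the transcription factor ATF4, so a list of 30 other genes of that response was set beside them. Of these, 29 were in the table and 28 were tested, of which Ddit4 met the filter only through the DON libraries and is left out of the counts. With DON against GM-CSF, 18 of 27 rose, 4 fell and 5 were not called, with a median of 0.49. The 4 that fell were the serine-synthesis genes Phgdh, Psat1 and Psph and the folate enzyme gene Shmt2, of which Psph and Shmt2 were named after their values were seen. With GM-CSF against none, 22 rose, 2 fell and 3 were not called (median 0.81), and with both against none, 26 rose and 1 fell (median 1.29). Among all tested genes, 28.8%, 27.5% and 27.2% rose in these comparisons, in the same order, and 28.8%, 29.3% and 28.4% fell. Atf4 itself had 588 and 537 CPM with DON, 303 and 319.7 CPM with GM-CSF, and 198 and 217 CPM without GM-CSF (0.85 ± 0.06 with DON, adjusted p = 1.59e-06; 0.59 ± 0.06 with GM-CSF, adjusted p = 1.72e-05). Trib3, a pseudokinase gene of the same response, rose by 2.34 ± 0.08 with DON (adjusted p = 3.91e-08), and Ddit3 by 2.59 ± 0.08 (adjusted p = 2.68e-08). In the same libraries Gpt2 was not called and Aldh18a1 and Pycr1 fell. The 5 listed genes not called with DON were Asns, Slc7a11, Slc7a5, Cth and Gars. Of these, Slc7a11, Cth and Gars were named after their values were seen. Myc had 49.3 and 47.4 CPM with DON, 74.5 and 69.5 CPM with GM-CSF, and 62.8 and 68.2 CPM without GM-CSF, a log2 fold change of -0.58 ± 0.06 with DON (adjusted p = 2.64e-05). Whether ATF4 or Myc bears on the changes of Aldh18a1, Pycr1 and Gpt2 was not tested.

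Compared with each other over the 6 libraries by the same measure, Glud1 and Got2 were the most alike of the 7 (0.045), followed by Got1 with Got2 (0.166) and Glud1 with Got1 (0.171). Gpt2 and Aldh18a1 differed by 0.214. Glul and Aldh18a1 were the least alike, at 1.3995 in centred log2 CPM. The ratio of Glul to Glud1 in FPKM was 0.242 and 0.250 with DON, 0.282 and 0.276 with GM-CSF, and 0.875 and 0.892 without GM-CSF. The ratio of Aldh18a1 to Pycr1 was 105 and 199 with DON, 41.9 and 28.7 with GM-CSF, and 35.5 and 20.5 without GM-CSF, so the DON libraries stood apart, with few Pycr1 reads behind each value.

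Several of the 7 genes have close copies elsewhere in the genome, and the sources used here do not say how reads that fit more than 1 place were counted. Among annotated transcripts, the 6 longest alignments were of Got2 with Gm10874 (98.8% identity over 1637 bases) and Got2-ps1 (99.1% over 1293 bases), of Glul with Glns-ps1 (96.8% over 1126 bases) and AC134576.3 (93.0% over 1122 bases), of Gpt2 with Gm5049 (92.2% over 1328 bases) and of Glud1 with Glud-ps (97.6% over 656 bases). Of these copies, Gm10874, Got2-ps1 and Glns-ps1 were in the count table, none above 0.101 CPM in any library. Exons of Glul and Got2 share 116 and 434 bases with genes on the opposite strand, Teddm2 and Gm45760, and the strand setting of the counting is not given, so reads of those stretches cannot be told apart.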

How the data were processed

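Per the labels' protocols, RNA from cultured wild-type mouse alveolar macrophages was sequenced on an Illumina HiSeq, in 6 libraries taken at day 2, 2 each with GM-CSF and DON, with GM-CSF and without GM-CSF. Groups and replicate numbers came from the sample titles. The authors deposited whole-number counts per gene symbol and FPKM values for the same 16840 genes, and all columns were used. Per the submitters' processing notes, the mm10 build, DESeq2 1.28.1, Subread 1.4.6 with featureCounts, and STAR 2.6.0a were used, with no role given. The sources used here do not give the annotation, strand setting, filters or the length behind FPKM.

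Counts were fitted with edgeR 4.0.16 in R 4.3.3: filterByExpr (minimum count 10, 12340 genes left), TMM scaling, 1 coefficient per group over all 6 libraries, and two-sided quasi-likelihood contrasts with Benjamini-Hochberg adjustment (3 residual degrees of freedom). The spread of each gene was drawn toward that of other genes, with a median of 6.74 prior degrees of freedom. SE is the log2 fold change divided by the root of F. FPKM values were used for levels between genes and, as log2(FPKM + 1), in limma 3.58.1. DESeq2 1.42.0 was an alternative, as were other scalings, no filter, leaving out each library, a replicate block and fits of 2 groups only. Leave-one-out fits kept the same 12340 genes, and a lone library was assumed to vary like the others. Replicates differed beyond sampling noise, with chi-square per degree of freedom between 3.90 and 7.04. The fits were tested on simulated data in which few genes changed, evenly in both directions, with the same spread for every gene. That test does not cover scaling or calls in data where most genes are called, as here.

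Named genes were the 7 members, up to 7 of each list by smallest adjusted p (4 for DON against GM-CSF, 3 for GM-CSF against none), a few fixed genes, and the 3 genes nearest to each member in centred log2 CPM (mean of at least 10 CPM, prior count 2). The members and lists were chosen with earlier results of these data known, and a few listed genes are not reported here. Transcript copies were found with BLAST 2.17.0 (at least 90% identity over 200 bases).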

Additional observations from a re-analysis of the deposited data

How the results depend on the processing

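Of the refits of the 7 genes' log2 fold changes (13 alternatives, 3 comparisons), 259 kept their direction and their side of the threshold. Glul with DON against GM-CSF was not called with no filter on low counts (-0.13, adjusted p = 0.0548), and ranged from -0.18 to -0.081 over leave-one-out fits, of which 3 lost the call. Got1 with DON against GM-CSF was called on FPKM (0.25, adjusted p = 0.0123). Gpt2 with DON against GM-CSF, never called, turned to -0.0027 with median-of-ratios scaling, -0.014 with total counts only, -0.0037 in DESeq2 and -0.11 on FPKM, and ranged from -0.13 to 0.17 with a library left out. Glud1 in that comparison, never called, ranged from -0.0016 to 0.068 with a library left out, and Pycr1 with GM-CSF from 1.04 to 1.80, of which 2 fits lost the call. The cause was not tested. In DESeq2, fitted to the same 12340 genes, 7 of the 7 were called with GM-CSF, where 6020 genes were called in all. With DON against GM-CSF it called 3 of the 7 and 6156 genes in all, and with both against none 6 and 5797.

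Scaling by total counts only moved the median of all genes to 0.10 with GM-CSF and 0.11 with both against none, and the calls over all genes to 4587 higher and 2689 lower (with TMM, 3393 and 3621) and 4408 higher and 2746 lower (with TMM, 3353 and 3506). Relative to that median, Glul was at -1.38 and Glud1, the smallest rise, at 0.24 with GM-CSF. Same-numbered deviations showed no strong positive correlation across 8163 genes: 0.06 for DON with GM-CSF, -0.30 for DON with no GM-CSF and -0.05 for GM-CSF with no GM-CSF. This check cannot show a batch that crosses the replicate numbers, which was not tested. A replicate block changed no call of the 7 genes and gave 6708, 6882 and 6542 genes called, in the order GM-CSF against none, DON added to GM-CSF, and both against none. Depth limits Pycr1 most, with at most 47 counts in a library, against at least 451 for each of the other 6 genes.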
